A study of Mus musculus with 36 samples.

Results

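Ribosome footprint peaks whose middle lies in codons 1 to 50 of a coding sequence were examined in 12 libraries from the brains of mice at postnatal day 5. Each peak is a stretch of a transcript, from valley to valley, with a height in reads. Of 278002 peaks in the deposited lists, 14335 (5.16%) had their middle in codons 1 to 50 of an annotated coding sequence of 200 or more codons, which was 5.84% of the 245652 coding peaks on such transcripts. They lay on 2370 of the 5095 genes with a coding peak.

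Whole brains of C57BL/6 wild-type (WT) mice and of FMR1-KO mice, which carry a disrupted Fmr1 gene, were homogenized with 10 mM MgCl2 and spun through a sucrose gradient. The pellet (labelled Granule) is the dense material that holds RNA granules, and fraction 5/6 (labelled Polysome) holds clusters of ribosomes. Brains of 10 animals were pooled for a preparation, and every library was made with the higher, standard dose of nuclease (the M-protocol). There were 3 libraries in each of 4 groups: WT pellet, FMR1-KO pellet, WT fraction 5/6 and FMR1-KO fraction 5/6. The KO is constitutive, so all cells of the brain lack the intact gene, and whole brain mixes neurons with other cells.

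A ribosome scans the 5′ leader, starts at the start codon and then elongates, and the first codons are where initiation gives way to steady elongation. Ribosome density near the start codon is often high in footprint data, and it depends on how quickly ribosomes leave the start region and on how the tissue was stopped. In neurons, RNA granules carry messages with ribosomes that have paused part of the way through the coding sequence, and FMRP, the product of Fmr1, is an RNA binding protein found with such ribosomes.

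Only 6 sites in codons 1 to 50 were called in all 12 libraries, and 2 of these are the same stretch of the genome, annotated as Tuba1a and as the overlapping model Gm49450. The sequences of 4 of them are shown first because the comparison of heights turns on these sites. Each sequence runs 5′ to 3′ for 30 bases of the transcript, with the codon at the middle of the peak in capitals.
Ywhab, codon 6: tgaccatggataagAGTgagctggtacaga
Ywhah, codon 40: aaccactatctaacGAAgatcgaaatctcc
Rpl7a, codon 6: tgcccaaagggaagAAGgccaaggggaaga
Rpsa, codon 45: aaggaaaagtgacGGTatctacatcataaa

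Positions are those of build GRCm38. The Ywhab site is at chr2:164011606-164011635 on the plus strand, in exon 2 of 6, and Ywhah is at chr5:33026558-33026587 on the plus strand, in exon 2 of 2. Both genes encode 14-3-3 proteins, adaptors that bind phosphorylated partners. The Rpl7a site, in a protein of the large ribosomal subunit, crosses exons 1 and 2 of 8 on the plus strand of chromosome 2 (chr2:26910829-26910830 and chr2:26911006-26911033). The Rpsa site, in a protein of the small ribosomal subunit, crosses exons 2 and 3 of 7 on the plus strand of chromosome 9 (chr9:120128609-120128622 and chr9:120129158-120129173). The 30 bases of the Rpl7a site occur exactly in transcripts of 18 other annotated genes and those of the Rpsa site in 3, many of them pseudogenes, so the source of these reads is uncertain. The stretches of Ywhab and Ywhah occur in no other annotated gene.

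Shown next are early sites of named genes that were called in 6 or more libraries. Those of Gap43, Marcks, Basp1 and Tubb2b carry tall peaks, and those of Gnao1 and Mapre1 smaller ones.
Gap43, codon 6: gctgtgctgtatgAGAagaaccaaacaggt
Marcks, codon 9: gttctccaagaccGCAgcgaagggagaagc
Basp1, codon 30: aggccgaaggcgcgGGCaccgaggaggagg
Tubb2b, codon 17: cggcaaccagatcGGTgccaagttttggga
Gnao1, codon 4: atgggatgtACGctgagcgcagaggagaga
Mapre1, codon 6: tggcagtgaatgtgTACtctacgtcagtca

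Gap43, Marcks and Basp1 encode acidic proteins of the inner face of the growth cone membrane. The Gap43 site crosses exons 1 and 2 of 3 on the minus strand (chr16:42340473-42340500 and chr16:42292365-42292366). The Marcks site is in exon 1 of 2 at chr10:37138495-37138524 and that of Basp1 in exon 2 of 2 at chr15:25364807-25364836, both on the minus strand. Tubb2b, a beta-tubulin, has its site across exons 1 and 2 of 4 on the minus strand (chr13:34130177-34130198 and chr13:34129347-34129354), and these bases also occur in the pseudogene Tubb2a-ps2. Gnao1, the alpha subunit of the G protein Go, has its site in exon 1 of 8 at chr8:93811336-93811365, and Mapre1, which encodes the microtubule end-binding protein EB1, in exon 2 of 7 at chr2:153746260-153746289, both on the plus strand. Among the 240 sites in codons 1 to 50 that were called in 6 or more libraries, 27 (11.2%) had 30 bases that occur in another annotated gene, against 257 of 2226 (11.5%) for recurrent coding sites further on.

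Library totals ran from 6765065 to 40174168 gene counts, and FMR1-KO fraction 5/6 library 3 was the smallest. Between 36.7 and 63.4% of each total fell on Cdk8 alone. Fmr1 was at 36.0, 31.9 and 36.2 CPM (counts of protein-coding genes scaled to the library total after TMM adjustment) in WT pellet and at 2.39, 3.26 and 2.22 CPM in FMR1-KO pellet. It was at 43.6 and 46.3 CPM in WT fraction 5/6 libraries 1 and 2 and at 3.01, 3.19 and 3.33 CPM in FMR1-KO fraction 5/6. The library labelled WT fraction 5/6 replicate 3 had 1.5 CPM, below every KO library, which goes against its label. Its Map1b level also stood with the pellets, at 4885 CPM, where the 6 pellet libraries had 3459 to 5795 CPM and the other 5 fraction 5/6 libraries 564 to 783 CPM. Its genotype and its fraction are therefore both in doubt, and the main comparisons that include it are also given without it. Markers of neurons (7 genes) summed to 4455 to 4965 CPM in the pellet and 4529 to 5125 CPM in fraction 5/6, those of astrocytes and radial glia (4 genes) to 439 to 557 and 439 to 616 CPM, and those of the oligodendrocyte lineage (4 genes) to 30.6 to 63.5 and 39.4 to 53.0 CPM. Microglial markers (4 genes) summed to 45.7 to 51.1 and 37.1 to 48.6 CPM, and those of endothelium (3), blood (2) and liver (1) stayed at 4.11 CPM or less in every library.

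Peaks were most frequent over codons 4 to 6 and scarce just after. Within codons 1 to 10 the most frequent position of the interval middle was codon 4, 5 or 6 in each of the 12 libraries. Over all 50 codons it was codon 5 or 6 in 11 of them, and in FMR1-KO fraction 5/6 library 2 codons 48 and 50, with 42 peaks each, were above codons 4 and 5, with 37 each. Per 1000 codons of transcripts with a coding peak, codons 1 to 10 held 10.1 peaks on average (range over the 12 libraries 5.38 to 23.3) and codons 11 to 15 held 3.92 (range 3.03 to 5.22). The density then climbed through 5.78 in codons 16 to 20, 7.03 in codons 21 to 30, 8.13 in codons 31 to 40 and 8.60 in codons 41 to 50. Further on it was 10.3 in codons 51 to 100, 11.7 in codons 101 to 150 and 12.9 in codons 151 to 200. The first 50 codons were therefore a thin region for peaks apart from a narrow rise next to the start codon. The edges of the window were not sharp, with 685 peaks at codons 49 and 50 and 682 at codons 51 and 52. At the other end, 36 peaks had their middle on the first base of the start codon and 201 in the last 6 bases of the 5′UTR.

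**Figure D1:**
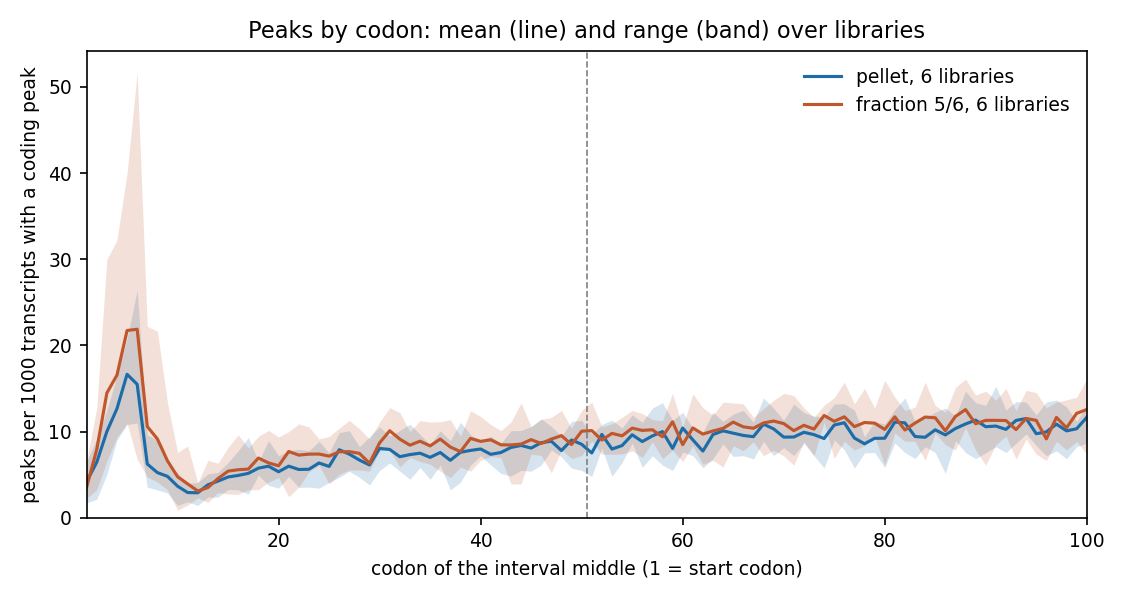
Number of peaks at each codon from 1 to 100, per 1000 transcripts with a coding peak, for the 6 pellet libraries (blue) and the 6 fraction 5/6 libraries (orange); lines are means and bands the range over libraries. The means are highest at codons 4 to 6 in both fractions, fall off steeply after codon 6 to a low near codon 12, and climb slowly from there past the dashed line at codon 50.

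Of the 14335 peaks, 3670 (25.6%) were in codons 1 to 10 and 10665 in codons 11 to 50. In codons 1 to 10 the density was 9.71 ± 1.85 peaks per 1000 codons in WT pellet, 7.39 ± 1.92 in FMR1-KO pellet, 11.2 ± 5.01 in WT fraction 5/6 and 12.2 ± 9.66 in FMR1-KO fraction 5/6 (SD, n = 3 each). The spread in fraction 5/6 came mainly from FMR1-KO library 3, where 40.7% of the early peaks were in codons 1 to 10, and WT library 1, with 32.0%, while the other 10 libraries had 16.8 to 28.5%. As a share of early peaks, codons 1 to 10 held 23.9 ± 3.47% in the pellet and 26.2 ± 8.69% in fraction 5/6 (SD, n = 6 each), which the exact permutation test over libraries did not separate (two-sided p = 0.6). The difference was -2.61 points when WT fraction 5/6 library 3, so labelled, was left out (exact permutation p = 0.580). The genotypes were also not separated, with 22.0% in FMR1-KO and 25.8% in WT pellet (exact permutation p = 0.3, n = 3 each) and 26.4% against 25.9% in fraction 5/6 (p = 0.9), a difference that was -0.168 points without that library. With 3 libraries a group the smallest p this test can give is 0.10.

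The pellet and fraction 5/6 were compared to ask whether their footprints pile up near the start of the message equally often. Early peaks were 5.23, 6.16 and 4.59% of the coding peaks in WT pellet and 4.49, 4.95 and 5.36% in FMR1-KO pellet. They were 8.0, 6.39 and 5.81% in WT fraction 5/6 and 6.11, 5.25 and 11% in FMR1-KO fraction 5/6. The fractions overlapped, with WT pellet library 2 above 3 of the 6 fraction 5/6 libraries, and the highest share was in the library with the fewest counts. Its 95% exact binomial interval was 10.4 to 11.7%, that of the lowest share, in FMR1-KO pellet library 1, was 4.25 to 4.73%, and such intervals cover counting error only.

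**Figure D2:**
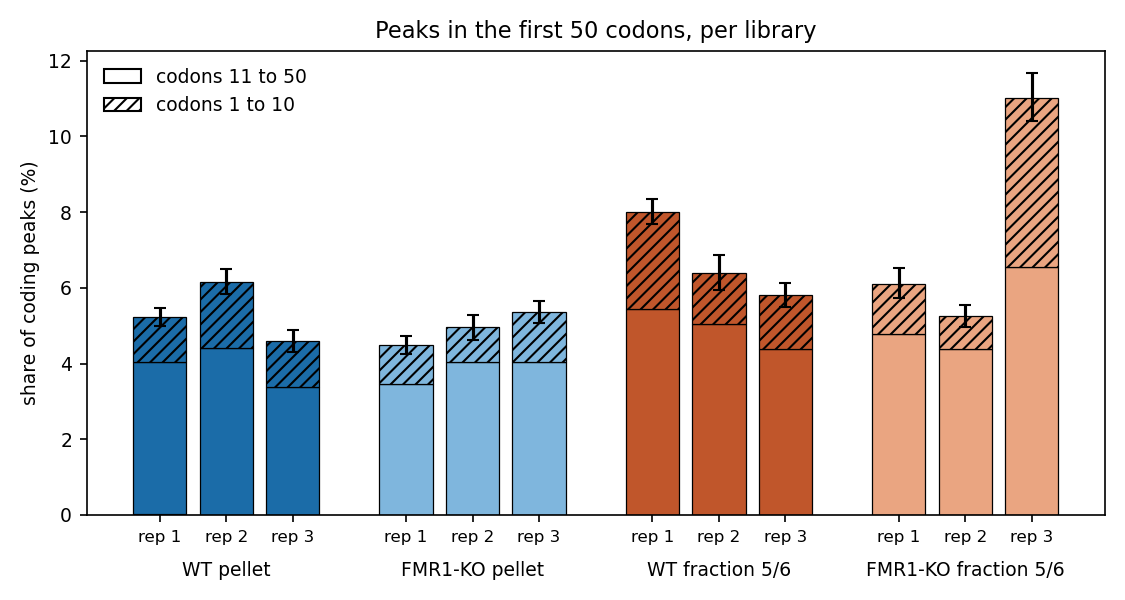
Share of each library's coding peaks that lie in codons 1 to 50, in percent, for the 3 libraries of each of the 4 groups; hatched parts are codons 1 to 10, plain parts codons 11 to 50, and error bars 95% exact binomial intervals. Pellet libraries lie between 4.49 and 6.16% and fraction 5/6 libraries between 5.25 and 11%, the highest being FMR1-KO replicate 3.

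The mean share was 5.13 ± 0.611% in the pellet and 7.10 ± 2.13% in fraction 5/6 (SD, n = 6 each), a difference of -1.97 percentage points with an exact permutation p of 0.0216 (two-sided). Adjusted over the 9 comparisons of this family by the Benjamini-Hochberg method, that p was 0.195, so the difference did not pass. Over codons 11 to 50 alone the shares were 3.90 and 5.09% (exact permutation p = 0.00649, an alternative chosen after seeing the data), and over codons 1 to 10 alone they were 1.23 and 2.01% (p = 0.208). When the library labelled WT fraction 5/6 replicate 3 was dropped, the difference over codons 1 to 50 came to -2.23 points (exact permutation p = 0.0173), and without the third fraction 5/6 library of both genotypes it was -1.31 points (exact permutation p = 0.0429).

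The window next to the first 50 codons gave means that lay the same way. Codons 51 to 100 held 7.14 ± 0.380% of the coding peaks in the pellet and 9.01 ± 0.942% in fraction 5/6 (SD, n = 6 each, exact permutation p = 0.00649, outside the family of 9). Coding length differed between the libraries' transcripts, and once the share was divided by the share expected from coding length it was 0.675 in the pellet and 0.803 in fraction 5/6 (exact permutation p = 0.240). On the 1265 transcripts with a coding peak in all 12 libraries the shares were 6.46 and 7.54% (exact permutation p = 0.214).

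Loss of FMRP did not separate the shares in either fraction. FMR1-KO pellet had a mean share of 4.93% and WT pellet 5.33%, a difference of -0.39 points (exact permutation p = 0.6, n = 3 each), and in fraction 5/6 the means were 7.46 and 6.73%, a difference of 0.73 points (p = 0.9). Leaving out single libraries turned both differences round: without WT pellet library 2 the pellet difference was 0.0247 points, and without FMR1-KO fraction 5/6 library 3 the fraction 5/6 difference was -1.05 points. The latter was 0.266 points when the library labelled WT fraction 5/6 replicate 3 was dropped (exact permutation p = 1). The pellet minus fraction 5/6 difference was -1.41 points in WT (exact permutation p = 0.2) and -2.53 points in FMR1-KO (exact permutation p = 0.2, n = 3 each). These differed by -1.12 points with a permutation p of 0.66 over 400 arrangements. That last value was not worked out without single libraries, among them the doubtful WT fraction 5/6 replicate 3 and FMR1-KO fraction 5/6 library 3.

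The height of early peaks against the other peaks of their own transcripts did not separate the groups. The median log2 height of early peaks against the transcript's median beyond codon 50 was -0.0621 ± 0.0361 in the pellet and -0.0379 ± 0.0658 in fraction 5/6 (SD, n = 6 each, exact permutation p = 0.452). The KO minus WT difference in that measure was -0.0405 in the pellet (exact permutation p = 0.2) and -0.0136 in fraction 5/6 (p = 0.9, n = 3 each). On dropping the library labelled WT fraction 5/6 replicate 3, the pellet minus fraction 5/6 difference was -0.0167 (exact permutation p = 0.649) and the KO minus WT difference in fraction 5/6 was 0.00188 (p = 1). The median height of early peaks was 15 to 17 reads in the 12 libraries and that of other coding peaks 14 to 16. By raw reads the tallest peaks were more frequent near the start, with 1.28 to 2.04% of early peaks among the tallest 1% of coding peaks of their library, against 0.924 to 0.992% of coding peaks beyond codon 50, and the early share was the higher in 12 of 12 libraries. Those early peaks numbered 14 to 31 a library, with Tuba1a and Gm49450 counted separately. Abundance was not matched, and genes with early peaks in all 12 libraries had a median of 48.2 CPM against 16.3 CPM for genes with none. The same sites recur between libraries, so the 12 libraries do not show an effect of position 12 times.

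Interval middles within 6 bases of each other on a transcript were taken as 1 site, which gave 7855 early sites and 136191 other coding sites. Most sites were seen once, 59.4% of the early and 61.2% of the other sites being called in a single library. Sites called in 6 or more libraries were 240 (3.06%) of the early sites and 2226 (1.63%) of the others. Of those 240, 91 (37.9%) were in codons 1 to 10, which held 23.6% of all early sites, and 20 (8.33%) were in codons 11 to 20. The recurrent sites thus crowded next to the start codon more than early sites at large. Being called in many libraries also needs reads in many libraries, and abundance was not matched between these sets.

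The 6 early sites called in every library were 0.0764% of the early sites, against 0.0535% of all coding sites. Another 9 were called in all pellet libraries, making 15 (all coding sites: 0.137%), and 13 were called in all fraction 5/6 libraries (0.0819% of all coding sites). No early site was called in all pellet and no fraction 5/6 library (0.00417% of coding sites were) and none in the reverse pattern (0% of coding sites). Leaving out the library labelled WT fraction 5/6 replicate 3, 20 early sites were called in all 5 other fraction 5/6 libraries (0.267%, all coding sites 0.121%), and each of the one-sided patterns held 1 (0.0134%, all coding sites 0.00659 and 0.00220%).

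Codon 10 of Tuba1a, which encodes an alpha-tubulin of the developing brain, carried the tallest early peak in 11 of the 12 libraries, counting the overlapping model as the same place, the exception being WT fraction 5/6 replicate 2. Its height was 5080, 2911 and 1983 reads in WT pellet, 3367, 1485 and 2678 in FMR1-KO pellet, 4981, 995 and 2349 in WT fraction 5/6 and 1355, 2832 and 1607 in FMR1-KO fraction 5/6. The groups overlapped throughout, while the median coding peak of a library was 14 to 16 reads. Gm49450, the overlapping model, had nearly the same heights (977 to 5166) and nearly the same gene counts, so the place is counted once here.

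Ywhab codon 6 stood at 375, 277 and 183 reads in WT pellet and 309, 243 and 218 in FMR1-KO pellet. In fraction 5/6 it stood at 1122, 212 and 230 in WT and 275, 334 and 247 in FMR1-KO. A single library, WT fraction 5/6 replicate 1, was far above the rest, and the other 11 ranged from 183 to 375. In the related Ywhah, codon 40 was at 258, 153 and 124 in WT pellet, 139, 74 and 123 in FMR1-KO pellet, 238, 92 and 110 in WT fraction 5/6 and 122, 180 and 86 in FMR1-KO fraction 5/6. FMR1-KO pellet had the lowest single value and its highest, 139, was within the WT range.

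The ribosomal protein sites were lower. Rpl7a codon 6 stood at 131, 103 and 48 in WT pellet, 95, 52 and 83 in FMR1-KO pellet, 194, 24 and 60 in WT fraction 5/6 and 67, 101 and 114 in FMR1-KO fraction 5/6, and Rpsa codon 45 ranged from 34 to 87 in the pellet and from 31 to 96 in fraction 5/6. For both, the libraries of a group differed more than the groups.

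**Figure D3:**
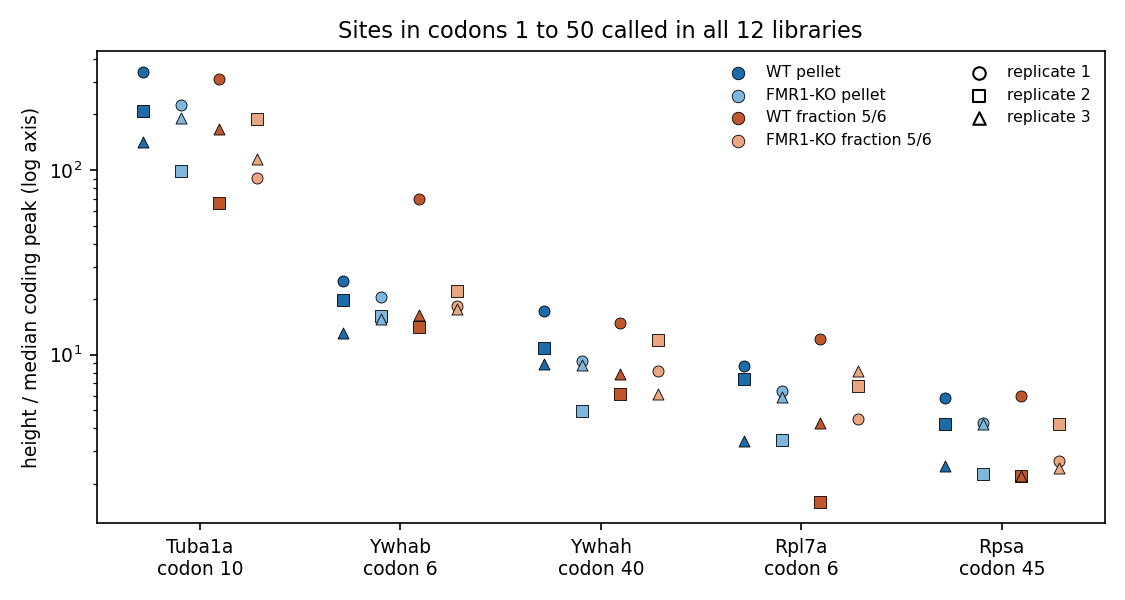
Height of the 5 early places called in all 12 libraries, as a ratio to the median coding peak of the same library, on a log axis; colours are the 4 groups and symbols the replicate numbers. Tuba1a codon 10 is the tallest of the 5 in every library, groups overlap at each site, and the Ywhab point at 70.1 is WT fraction 5/6 replicate 1.

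Heights were compared with limma on log2 height centred on each library's median over the sites tested. Between pellet and fraction 5/6, 77 coding sites could be tested and 0 passed an adjusted p of 0.05 (0% of all sites tested), with 18 at an unadjusted p under 0.05, 1 of them among the 6 early sites. That early site was Ywhab codon 6, with a log2 difference of -0.73 (SE 0.24, limma adjusted p = 0.103). Ywhah codon 40 was at -0.33 (SE 0.16, limma adjusted p = 0.209), Rpl7a at -0.35, Rpsa at -0.16 and Tuba1a at 0.01 on the same scale. Without the library labelled WT fraction 5/6 replicate 3, 16 of the 77 sites passed, 2 of them early. Ywhab codon 6 was then lower in the pellet by -0.89 (SE 0.22, limma adjusted p = 0.0117) and Ywhah codon 40 by -0.44 (SE 0.15, limma adjusted p = 0.0470). Relative to other matched sites of its own transcript, with all libraries, Ywhah codon 40 was at -0.057 (limma adjusted p = 0.925). Without the third fraction 5/6 library of both genotypes 15 sites passed, and Ywhab was the early one (-0.80, limma adjusted p = 0.0206). Leaving out 1 library or replicate number moved the Ywhab site between -1.08, without replicate 2, and -0.44, without replicate 1, and without WT fraction 5/6 library 1 it was at -0.54 (limma adjusted p = 0.197).

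No early site passed between the genotypes. In the pellet 197 coding sites were tested and 0 passed in limma (0%), with 13 at an unadjusted p under 0.05, of which 1 was early, Rps3a1 codon 23, at -0.49 (SE 0.20, limma adjusted p = 0.659). Ywhah codon 40 was at -0.43 (SE 0.20, limma adjusted p = 0.659). Mapre1 codon 6 was at -0.35 (SE 0.35, limma adjusted p = 0.845). In 8 of 9 fits that left out a library or replicate number no early site passed, and in the other, without replicate 3, Mapre1 codon 6 was at -0.94 (SE 0.28, limma adjusted p = 0.0487), 1 of 6 sites that passed. In fraction 5/6 118 sites were tested and 0 passed (0%), with 11 at an unadjusted p under 0.05. The 2 early ones were Prdx6 codon 31, in a peroxidase gene, at 0.78 (SE 0.27, limma adjusted p = 0.291), and Rpl7a codon 6 at 0.68 (SE 0.33, limma adjusted p = 0.452). These were, with the library labelled WT fraction 5/6 replicate 3 dropped, 0.63 (limma adjusted p = 0.387) and 0.69 (limma adjusted p = 0.395). Over all fits that left out a library or replicate number Rpl7a ranged from 0.18, without FMR1-KO library 3, to 1.23, without replicate 1, and passed in none. The interaction of fraction and genotype passed at 0 of 77 sites (0%), with 9 at an unadjusted p under 0.05, and Ywhah codon 40 was at -0.70 (SE 0.28, limma adjusted p = 0.334), or at -0.12 relative to other sites of its transcript (limma adjusted p = 0.955).

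The growth cone genes had tall early peaks that were called in only some libraries. Gap43 codon 6 was called in 3 pellet libraries at 938 to 1371 reads and in 3 fraction 5/6 libraries at 810 to 1943. Marcks codon 9 was called in 4 libraries of each fraction, at 434 to 799 and 376 to 1243 reads, and Basp1 codon 30 in 5 of each, at 313 to 741 and 339 to 852 reads. Tubb2b codon 17, called in 4 and 4, reached 695 to 1769 reads in the pellet and 575 to 2199 in fraction 5/6. The genes kept an early peak more often than the single site: Marcks, Basp1 and Tubb2b had one in all 12 libraries and Gap43 in 10, at other early sites in the libraries that lack this one.

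Smaller sites of other genes were called in 9 to 11 libraries. Gnao1 codon 4 was called in 11 libraries at 66 to 126 reads in the pellet and 58 to 196 in fraction 5/6. Mapre1 codon 6 was called in all 6 pellet libraries (20 to 129 reads) and in 4 of fraction 5/6 (59 to 128). Psma2 codon 6, in a subunit of the proteasome core, was called in 11 libraries at 14 to 35 and 18 to 122 reads. Eef1g codon 4, in a subunit of elongation factor 1, was called in 10 at 41 to 116 and 38 to 118 reads, and Eif2s1 codon 5, in the alpha subunit of initiation factor 2, in 9 at 30 to 70 and 26 to 71. The ranges of the 2 fractions overlapped at each of these sites.

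Within a fraction, some early sites were called in every library of 1 genotype and in none of the other, whatever was called in the other fraction. In the pellet there were 19 for WT (all coding sites: 0.197%) and 8 for FMR1-KO (0.138%), and in fraction 5/6 there were 11 for WT (0.0902%) and 16 for FMR1-KO (0.121%). As shares of the 7855 early sites these are small, and no test over libraries of presence at a single site can go below 0.10.

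By height percentile the leading sites of WT pellet included Marcks codon 32 (620, 484 and 241 reads), Arhgdia codon 3 (91, 65 and 41), Nudc codon 40 (73, 55 and 51) and Mapre2 codon 4 (51, 35 and 23). Those of FMR1-KO pellet were Gnb1 codon 37 (50, 33 and 48), Mapre2 codon 7 (25, 20 and 31), Ddx10 codon 35 (36, 17 and 19), Cttn codon 39 (26, 13 and 17) and Atcay codon 5 (16, 16 and 11). The Mapre2 site thus appears in both lists, at codon 4 in WT and codon 7 in FMR1-KO, with interval middles 3 codons apart, and the gene had an early peak in all 12 libraries.

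In fraction 5/6 the leading WT sites were Hnrnpu codon 7 (143, 41 and 101 reads), Rab2a codon 15 (237, 47 and 73), Hist1h1d codon 4 (67, 6 and 57), Nfix codon 47 (104, 36 and 43) and Aamp codon 31 (86, 33 and 27). Those of FMR1-KO were Basp1 codon 8 (445, 568 and 365), Gnao1 codon 23 (47, 77 and 40), Mapre2 codon 23 (33, 32 and 27), Hist1h1d codon 1 (34, 34 and 61) and Rgs4 codon 34 (28, 37 and 15). Hist1h1d, a linker histone, again appears on each side with middles 3 codons apart. Several sites named for a fraction were called in the other genotype in the other fraction. Nudc codon 40 stood at 50 and 64 reads in FMR1-KO fraction 5/6, and Aamp codon 31 at 33 and 35 in FMR1-KO pellet. Mapre2 codon 23 stood at 41 and 30 reads in WT pellet, while Gnb1 codon 37 and Cttn codon 39 were called in no other group. Without the library labelled WT fraction 5/6 replicate 3, 80 early sites were called in the other 2 WT libraries and no FMR1-KO library of fraction 5/6 (1.07% of early sites), against 0.720% of all coding sites, since fewer libraries have to share a site.

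At the level of genes, 163 of the 5095 (3.2%) had an early peak in all 12 libraries, 727 (14.3%) in 6 or more and 690 in a single one. Genes with early peaks in many libraries had short coding sequences and many reads. The median coding length was 309 codons for the 163 genes, 395 for those with early peaks in 6 to 11 libraries, 471 for 1 to 5 libraries and 577 for genes with none. The median level was 48.2, 31, 25 and 16.3 CPM in the same order. Codons 51 to 100 gave a like picture, with 1002 of 2715 genes (36.9%) carrying a peak there in 6 or more libraries and 204 (7.51%) in all 12, and 727 of 2370 and 163 of 2370 are the matching counts for codons 1 to 50.

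Within codons 1 to 10, 1237 genes had a peak in some library, 203 in 6 or more and 16 in all 12. Among the 16 were Eif2s1, Elavl3, Hist1h1d, Jun, Nr2f1, Otub1, Ppp2ca, Psma2, Psma5, Ptov1, Rpl7a, Sox1, Vapb, Vdac3 and Ywhab. Jun, Nr2f1 and Sox1 encode transcription factors, Psma2 and Psma5 proteasome subunits, Ppp2ca the catalytic subunit of a phosphatase, and Elavl3 a neuronal RNA binding protein.

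One gene of 2370, Ncam1, had early peaks in all 6 pellet and no fraction 5/6 library, and none had the reverse. For codons 51 to 100 both counts were 0 of 2715 genes. Ncam1, the neural cell adhesion molecule, has 849 codons in the transcript used and a coding peak in only 7 of the 12 libraries, and only 1 of these 7, the library labelled WT fraction 5/6 replicate 3, was of fraction 5/6. Early peaks in 4 or more pellet and at most 1 fraction 5/6 library were found in 27 genes and the reverse in 26. In codons 51 to 100 the matching counts were 50 (1.84%) and 17 (0.626%) genes. Between genotypes, 9 genes had an early peak in all 3 WT and no KO pellet library and 6 the reverse (codons 51 to 100: 9 and 12 genes, 0.331 and 0.442%), and in fraction 5/6 the counts were 6 and 7 (6 and 9 genes, 0.221 and 0.331%).

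The gene lists differed in how many members had an early peak in 6 or more libraries, read against 14.3% of all genes with a coding peak. Most lists of cytosolic, cytoskeletal and RNA-related proteins lay above it. Of microtubule-associated proteins 9 of 18 did: Map4, Map6, Dcx, Dclk1, Mapre1, Mapre3, Dpysl3, Dpysl4 and Dpysl5. Ribosomal proteins had 10 of 22, cytosolic chaperones and 14-3-3 proteins 9 of 22 (among them Hspa8, Dnaja1, Dnajb1, Cct3 and 4 Ywha genes), and synaptic vesicle and presynaptic proteins 9 of 25, among them Syn2, Sv2a, Napb, Gap43, Basp1, Marcks and Ncam1. Tubulins had 4 of 13 (Tubb2a, Tubb2b, Tuba1a and Tubg1), RNA granule binding proteins 9 of 30 (among them Stau1, Pura, Purb, G3bp1 and Celf4) and nuclear and chromatin proteins 8 of 30. Actins and actin turnover had 3 of 14 (Arpc2, Capza2 and Fscn1), neurotransmitter receptors 1 of 4 (Grm3) and translation factors 5 of 29 (Eef1g, Eif3e, Eif2s1, Eif2s3x and Etf1), the last close to the share of all genes.

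The other 6 lists lay below it. Glycolytic enzymes had 1 of 15 (Hk1), and Aldoa, Tpi1, Gapdh, Pgk1, Pgam1, Eno1, Eno2 and Ldha had no early peak in any library although each had coding peaks in all 12. Postsynaptic scaffolds and kinases had 1 of 16 (Sptbn1), motor proteins 1 of 18 (Kif5c), multipass channels, pumps and transporters 1 of 12 (Kcnd2), adhesion, guidance and secreted proteins 1 of 20 (Prnp) and ER-resident folding proteins 0 of 9. The adhesion molecule Ncam1 was counted with the presynaptic proteins and not with the adhesion list. Coding length and the number of libraries with any coding peak moved with these counts. The median length was 263.5 codons for ribosomal proteins, with coding peaks in a median of 12 libraries, against 869.5 codons and 6.5 libraries for postsynaptic scaffolds and 1154 codons and 8.5 libraries for motors. Glycolytic enzymes, at 434 codons and 12 libraries, and microtubule-associated proteins, at 652.5 codons and 12 libraries, do not follow that order. The part of length and abundance in these counts was not tested.

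**Figure D4:**
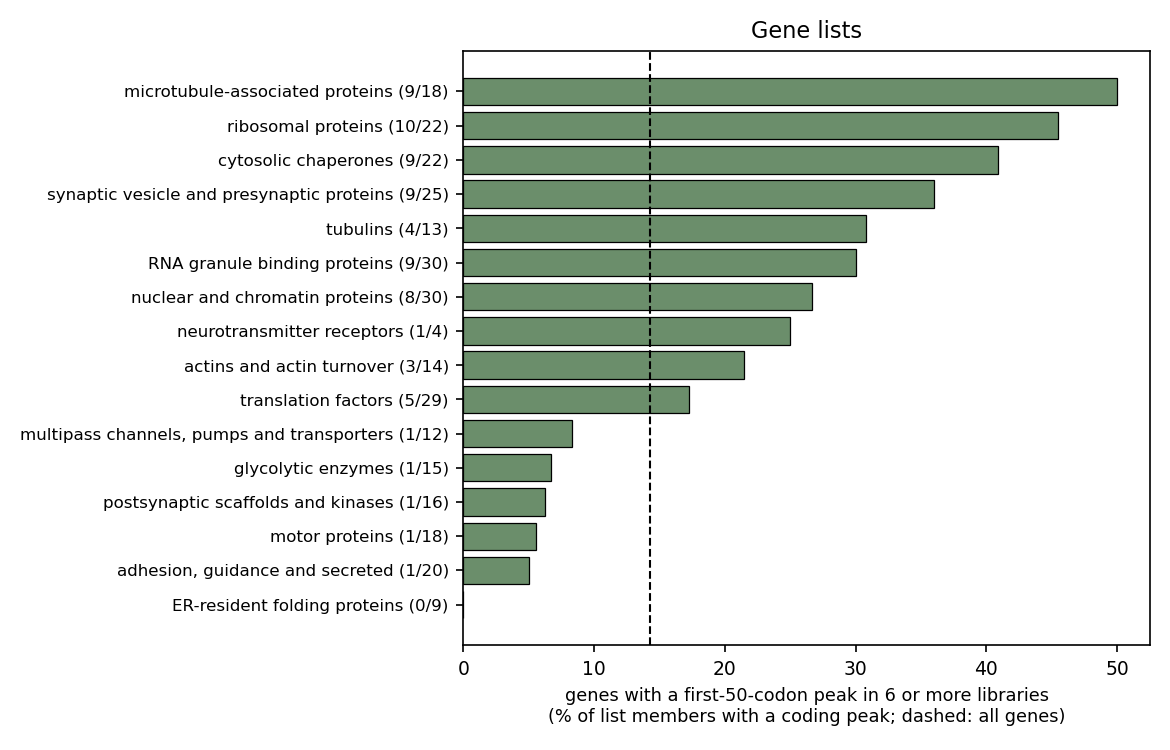
Share of the members of each gene list, in percent of members with a coding peak, that had a peak in codons 1 to 50 in 6 or more libraries; numbers beside the names are the members counted and the dashed line marks 14.3%, the share of all genes. Microtubule-associated proteins stand highest, at 9 of 18, and ER-resident folding proteins lowest, at 0 of 9.

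Related genes within a list differed. Among tubulins, Tubb2a had early peaks in all 12 libraries (19 of its 59 coding peaks, over all libraries) and so had Tubb2b (15 of 86), while Tubb5, Tubb6, Tuba1b, Tuba1c and Tuba8 had none. Tubb3, the neuron-specific beta-tubulin, had 22 coding peaks in 10 libraries and none early. Actb, the cytoplasmic beta-actin, had 70 coding peaks and no early one. Of the 14-3-3 genes, Ywhab, Ywhag, Ywhah and Ywhaz had early peaks in 6 or more libraries and Ywhae in none. Fmr1 itself had 2 coding peaks, in 1 library, and Map1b, a long microtubule-associated gene, had 24 in 7 libraries, and neither had an early peak.

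The bases around recurrent early sites were compared with those around early codons at large, leaving out windows that reach beyond the coding sequence, which drops sites at the first codons. A window of 35 bases around the middle held the letters TGGA in 29.2% of recurrent early sites (168 of 240 windows lie wholly inside the coding sequence), in 25.5% of early sites called once, in 28.7% of recurrent sites beyond codon 50 and in 22.5% of all codon positions 1 to 50 of the same transcripts. AGGA was found in 24.4, 24.5, 25.5 and 23.3% of windows in the same order, GAAG in 28.6, 31.2, 32.9 and 26.8%, and GGAG in 28.6, 29.1, 24.4 and 28.9%. Motifs were searched on the transcript strand only, and AGGA, TGGA and GGAG share the letters GGA. The GC content of the windows was 53.3, 55.8, 50.5 and 58.0% in that order.

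A purine 3 bases before the start codon was found in 90.1% of the 203 genes with a codon 1 to 10 peak in 6 or more libraries and in 87.4% of the 3762 genes with a codon 1 to 10 peak in no library, and a G right after the start codon in 52.7 and 54.6%. The median annotated 5′UTR was 218 and 172 bases long. These values are descriptions of the annotated transcripts, and no test was made on them.

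Gene counts gave the abundance of footprints for the 727 genes with early peaks in 6 or more libraries. These genes were chosen by peaks of the same libraries, so the counts are no independent test of them. In WT, 3 of 13069 genes passed between pellet and fraction 5/6 (0.023%, edgeR quasi-likelihood test), 2 of them higher (0.0153%) and 1 lower (0.00765%) in the pellet. None was among the 727. An unadjusted p under 0.05 was found for 26 of the 727 and for 801 of all 13069 genes. That fit holds the library labelled WT fraction 5/6 replicate 3, whose Fmr1 and Map1b levels go against its label. On counts made up from the means and spread of this comparison, edgeR found 5 of 100 genes with a log2 change of 1. Few calls are therefore no sign of equal levels. DESeq2 called 3 of the 727 lower in the pellet (0.413%, against 0.612% of all genes). Their median log2 difference was -0.07, against -0.01 over all genes tested. Without the library labelled WT fraction 5/6 replicate 3, edgeR called 40 of the 727 higher (5.50%) and 22 lower (3.03%) in the pellet, against 7.78% and 1.86% of all 13232 genes in that fit.

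In FMR1-KO, 1524 of 13241 genes passed (11.5%), 1206 of them higher (9.11%) and 318 lower (2.4%) in the pellet. Of the 727 genes 33 were higher (4.54%) and 53 lower (7.29%), with a median log2 difference of -0.20 against -0.04 over all genes. Of the 163 genes with an early peak in all 12 libraries 1 was higher and 21 lower, with a median of -0.27. Of the 2722 tested genes with coding peaks but no early peak 442 were higher and 67 lower, with a median of 0.03. Membership of these sets depends on reads in the libraries compared, so their opposite skews cannot be read as a result about early peaks. These counts depend on the fit and on single libraries. With the replicate number as a block, 12 of the 727 were higher (1.65%, all genes 4.88%) and 0 lower (all genes 0.121%), so that the 53 lower calls were lost. With library size alone 3 were higher (0.413%, all genes 1.02%) and 1 lower (0.138%, all genes 0.755%). Without replicate 3 there were 0 calls in either direction among the 727, with 3 higher and 4 lower of all 13461 genes. Without FMR1-KO pellet library 1 the 727 held 11 higher (all genes 3.94%) and 0 lower (all genes 0.0737%), and without FMR1-KO fraction 5/6 library 1 they held 9 higher (all genes 3.50%) and 2 lower (all genes 0.0583%). Ywhab was at a log2 difference of -0.22 in WT (edgeR adjusted p = 0.707; -0.36 and 0.161 without the library labelled WT fraction 5/6 replicate 3) and -0.46 in FMR1-KO (edgeR adjusted p = 0.130), and Ywhah at -0.24 in WT (-0.45 without that library, edgeR adjusted p = 0.0708) and -0.49 in FMR1-KO (edgeR adjusted p = 0.118). Leaving out 1 library or replicate number, Ywhab ranged from -0.36 to -0.12 in WT and -0.50 to -0.38 in FMR1-KO, and Ywhah from -0.45 to -0.11 and from -0.65 to -0.27. DESeq2 called both lower in the FMR1-KO pellet (adjusted p = 0.00746 for Ywhab and 0.0312 for Ywhah). Between the genotypes, bulk samples cannot tell fewer cells of a type from less RNA per cell.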

How the data were processed

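The authors trimmed adaptors, removed contaminants and aligned the reads to GRCm38. The submitters' processing notes name cutadapt 2.10, Bowtie2 2.3.5, STAR 2.7.8a, Picard, SAMtools 1.19.2 and featureCounts 2.2.0. The files used were of different kinds. The first is the authors' table of raw gene counts, with 16614 rows, of which 92 carry no gene name. Gene tests used the 16568 rows whose gene identifier is protein-coding in vM21. The second is, per library, the deposited list of peaks with transcript, start, end and height, a signal in reads that is not scaled between libraries. The study's methods call a peak where the highest point is 4 times the transcript's average; whether the deposited lists were cut that way is not given in the sources used here, nor is whether positions count from 0 or 1, so codons may be off by 1 base. The deposited lists hold columns of the 12 libraries only.

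The libraries of a group were pooled before reverse transcription (3 linkers), so pool and group cannot be told apart. Nothing tells whether replicates came from separate litters, so p-values measure the spread between these libraries.

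A peak's middle was placed on GENCODE vM21 coding sequences, with 1 transcript per gene. 24837 peaks on coding sequences under 200 codons, 1499 on transcripts not in vM21, 553 without an annotated coding start, 411 past the transcript end and 107 on transcripts without a coding sequence were left out, and 250595 (90.1%) were kept. Of the early peaks, 72 are listed at height 0. The median early interval was 25 bases. Middles within 6 bases were joined into sites, and log2 heights used a pseudocount of 1. Shares were compared by exact permutation over libraries, site heights with limma 3.58.1 and gene counts with edgeR 4.0.16 (TMM, filterByExpr), with DESeq2 1.42.0 as an alternative, and Benjamini-Hochberg adjustment. The permutation test, the site matching, limma and edgeR were tried on made-up data. In that trial edgeR found 5 of 100 genes with a log2 change of 1 in WT and 5 of 100 in FMR1-KO. At a log2 change of 2 it found 43 and 77 of 100. R 4.3.3 and Python 3.11.15 (SciPy 1.17.1) were used. Sequences were read from the GENCODE vM21 transcripts and checked against GRCm38.

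The members, gene lists and the rule for named genes were chosen with earlier results of these data known. The rule names sites called in all 12 libraries, sites that pass a height comparison, Fmr1, Tubb2b and Map1b, and up to 2 sites of each list. It also names up to 5 sites per genotype called, within a fraction, in that genotype alone. Other genes are named as members of a list or count. Alternatives were other windows, length minimums, denominators, matching distances, a fixed number of tallest peaks, other scalings and filters, the replicate number as a block, and leaving out libraries. Some genes and sequences are not reported here.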

Additional observations from a re-analysis of the deposited data

Results flagged for a closer look

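The Ywhab site at codon 6 was 70.1 times the median coding peak in WT fraction 5/6 replicate 1, far above the other 5 fraction 5/6 libraries. Its gap to the nearest of them was 0.855 of the whole range, against a limit of 0.625 for 6 libraries. In all, 18 sets of values were checked this way, and chance passes the limit in about 1 group in 20. The same library also had the second highest share of early peaks, 8.0%, with 32.0% of them in codons 1 to 10.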

How the results depend on the processing

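Lower early shares in the pellet than in fraction 5/6 (-1.97 points) kept their direction under every alternative run, but the unadjusted exact permutation p went above 0.05 under 5 of them: the same number of tallest peaks in each library (-1.80 points, p = 0.0628), codons 1 to 30 (-1.27, p = 0.0844), the share over that expected from coding length (-0.13, p = 0.240), transcripts with a coding peak in all 12 libraries (-1.08, p = 0.214) and codons 1 to 10 alone (-0.77, p = 0.208), the last 2 chosen after seeing the data. Leaving out 1 library or 1 replicate number gave -2.82 to -1.18 points with p from 0.00649 to 0.171, and p stayed under 0.05 in 10 of 15 such fits; with WT pellet replicate 3 left out it was 0.0628, as it was with FMR1-KO pellet replicate 1 left out, and it was 0.0541 without FMR1-KO pellet replicate 2, 0.171 without replicate 1 and 0.114 without replicate 3. The cause was not tested.

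Of the 6 genotype differences, those in relative height and in the codon 1 to 10 share of the pellet kept their sign in 9 of 9 fits that left out a library or replicate number (-0.0593 to -0.0110 and -5.85 to -0.66 points), and the other 4 did not. KO minus WT shares ran from -0.976 to 0.0247 points in the pellet and from -1.51 to 2.04 points in fraction 5/6 when 1 library or replicate number was left out. For relative height the ranges were -0.061 to 0.0044 (pellet minus fraction 5/6) and -0.064 to 0.023 (KO minus WT in fraction 5/6), and for the codon 1 to 10 share -5.56 to 0.64 and -7.28 to 5.88 points. KO minus WT relative height in fraction 5/6 was 0.0052 with the same number of tallest peaks, 0.0018 with a reference without the last 50 codons and 0.0049 on transcripts shared by all libraries, and the codon 1 to 10 share difference was -0.59 with the same number of tallest peaks. Without the third fraction 5/6 library of both genotypes, chosen after seeing the data, the KO minus WT share was -1.51 points, relative height 0.0089 (pellet minus fraction 5/6), and the codon 1 to 10 share 0.93 (pellet minus fraction 5/6) and -7.28 (KO minus WT), and 1 early site passed limma between the fractions. Leave-one-out fits called 0 to 2 early sites between the fractions and 0 to 1 between genotypes in the pellet. Rps3a1 codon 23 was at 0.045 relative to other sites of its transcript.

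Matching middles within 3 bases gave 3 early sites in every library, 9 in every pellet and 6 in every fraction 5/6 library (all coding sites: 0.0229, 0.0593 and 0.0358%), and 6 in WT alone and 8 in FMR1-KO alone in fraction 5/6 (0.0446 and 0.0587%). In these counts, alone means within the fraction named. Within 12 bases the counts were 12, 47 and 39 (0.131, 0.432 and 0.258%), and 21 in WT alone in fraction 5/6 (0.181%). With the same number of tallest peaks, 10 sites were in WT alone (0.255% of early and 0.232% of all coding sites) and 4 in FMR1-KO alone in the pellet (0.102 and 0.143%), and 9 in FMR1-KO alone in fraction 5/6 (0.230 and 0.232%). With a library left out the sites of every pellet library were 15 to 28 and of every fraction 5/6 library 13 to 21, those in all of 1 fraction and none of the other 0 to 1, and those of 1 genotype 19 to 129 (WT) and 8 to 75 (FMR1-KO) in the pellet and 11 to 110 and 16 to 89 in fraction 5/6. The shares of all coding sites went up with them, to 1.36, 1.23, 1.14 and 1.10% where the early counts were highest (1.69, 0.979, 1.43 and 1.2% of early sites).

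Of the 727 genes, the number called lower in the WT pellet was 4 with library size alone (0.550%, all genes 0.987%) and 3 with DESeq2. Leaving out a library or replicate number gave 0 to 40 higher and 0 to 22 lower, and in the fit with the highest counts the shares of all genes were 7.78 and 1.86%. In FMR1-KO it was 3 higher and 1 lower with library size alone, 60 (8.25%, all genes 11.9%) and 85 (11.7%, all genes 3.80%) with DESeq2, 21 lower (2.89%, all genes 0.942%) without a filter, and 0 to 44 higher and 0 to 23 lower with a library left out. The replicate numbers were not taken to pair the libraries, since the labels name no shared preparation and not each pair correlated above 0.1. Pellet and fraction 5/6 of the same number correlated at -0.014 to 0.174 in WT and at 0.09 to 0.22 in FMR1-KO. Same-numbered WT and FMR1-KO libraries, which are from different animals, correlated at -0.154 to 0.317. FMR1-KO libraries 1 of both fractions shared a high Grb2 level (915 and 691 CPM, other libraries 23.8 to 34.3). Whether same-numbered fractions share a preparation was not tested, and if they do, the tests without a block ignore that pairing. In the fit that takes the number as a block, 12 of the 727 genes were higher and 0 lower in the FMR1-KO pellet, and the early share was lower in the pellet in 6 of 6 pairs (-1.97 points, exact sign-flip permutation p = 0.03125, the smallest 6 pairs allow). Under the block limma passed 5 of 77 sites between the fractions and 2 of 77 for the interaction, none of them early, and no other call changed. Peaks are listed only where reads were dense enough, so a missing peak is no measure of absent ribosomes.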
